A study of Homo sapiens with 5 samples.

Results

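Keratins are the intermediate filament proteins of epithelial cells. Each filament is built from pairs of an acidic type I and a basic type II chain, so that KRT5 assembles with KRT14 in basal cells, KRT8 with KRT18 in luminal and other simple epithelia, and KRT6A with KRT16 or KRT17 in cells that are wounded, stressed or dividing fast. The genes lie in a type II cluster on chromosome 12, which also holds the type I gene KRT18, and a type I cluster on chromosome 17. In the breast, basal and luminal cells are told apart by which of these pairs they carry.

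All protein-coding genes of the family with a symbol of the form KRT and a number were taken from the count table, without keratin-associated proteins and pseudogenes. They were 55 genes of 23459, with 26 type II and 29 type I members, 27 on chromosome 12 and 28 on chromosome 17. Transcripts were sequenced from their 3′ ends in MCF10A SAM cells, which were picked as single clones from the immortalised human mammary epithelial line MCF10A. All the cells carried dCas9-VP64 and MCP-p65-HSF1, the parts of a guide-directed activator, and they grew with insulin, hydrocortisone, cholera toxin and EGF. In 3 libraries the cells held a non-targeting control guide (NTC), and in 2 libraries the guide sgJUN#1, which brings the activator to the JUN promoter. Labels do not say whether the same clone was used for both guides. In bulk RNA, fewer cells of a type and less RNA per cell cannot be told apart.

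JUN, the targeted gene, had 25.0, 36.2 and 9.32 CPM (counts relative to the library total, scaled by TMM) in NTC replicates 1 to 3, and 171.5 and 265.5 CPM in sgJUN#1 replicates 1 and 2. The groups did not overlap, with a log2 fold change of 3.25 and an edgeR adjusted p-value of 0.0733. Library totals ran from 2455627 to 4988062 counts, so the 3 counts that a library with none could still hold, the floor used here, stood for 0.619 to 1.22 CPM. The study calls its replicates biological, and neither it nor the labels say how these libraries were kept apart, so p-values measure the spread between them.

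Most of the family had no counts or few. Of the 55 keratins, 18 had no count in any library, 24 had counts but too few to be tested, and 13 passed the expression filter. Among the 24, KRT6B had 108 counts in total, KRT15 had 33 and KRT16 had 26, and the other 21 had at most 10. Of these 21, KRT4 had 10 counts over all libraries, KRT6C had 8, KRT13, KRT32 and KRT82 had 6 each, KRT25 and KRT85 had 5 each, KRT73 had 4 and KRT83 had 3. KRT3 and KRT26 had 2 counts each, and KRT20, KRT23, KRT28, KRT33B, KRT72, KRT75, KRT76, KRT77, KRT78 and KRT84 had 1 each. The 18 without a count were KRT1, the type II chain of the differentiated epidermis, KRT19, the type I keratin that marks luminal cells, KRT2, KRT9, KRT12, KRT24 and KRT79, and the hair and inner root sheath keratins KRT27, KRT31, KRT33A, KRT35, KRT36, KRT37, KRT38, KRT39, KRT40, KRT71 and KRT74. At 3′ ends a read is counted about once per transcript whatever its length, so CPM levels are compared between keratins here without scaling by length.

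No tested keratin passed the threshold between sgJUN#1 and NTC. With edgeR's quasi-likelihood test, 0 of 13 had an adjusted p-value under 0.05, against a background of 0.206% of all 13616 tested genes (0.0808% higher and 0.125% lower in sgJUN#1). An unadjusted p-value under 0.05 was found for 0 of 13, against 8.38% of tested genes (4.02% higher and 4.36% lower). DESeq2 also called 0 keratins, with 0.975% of its genes called. The lowest edgeR adjusted p-value among keratins was 0.621, for KRT10. KRT14 reached the filter, 2.68 CPM in 2 libraries, only through NTC, the group where it was higher, and KRT81 and KRT86 share nearly all their reads. With KRT14 and KRT86 left out, 7 of 11 keratins had a log2 fold change above 0 and 4 below it, with a median of 0.059 beside -0.0082 over all tested genes. The groups did not overlap for 4 of these 11 (36.4%), KRT10, KRT17 and KRT222 higher and KRT7 lower in sgJUN#1, where 25.0% of all tested genes did not overlap (12.2% higher and 12.8% lower). All 13 of the 95% intervals included 0 and reached 0.435 to 1.95 to either side on the log2 scale. Changes smaller than these were not detectable with 3 and 2 libraries, and larger ones could be missed, since calls used adjusted p-values. JUN, with a log2 fold change of 3.25 and a 95% interval of 2.12 to 4.38, was itself not called by edgeR.

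**Figure D1:**
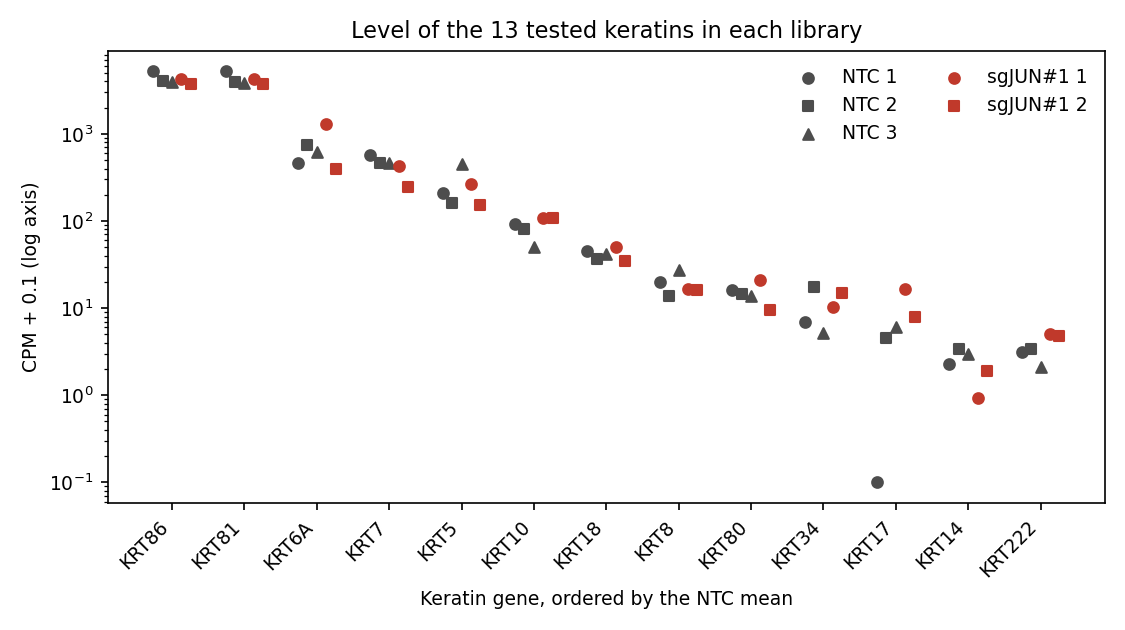
Each point is the level of a tested keratin in 1 library, as CPM plus 0.1 on a log axis, with 3 NTC libraries in grey and 2 sgJUN#1 libraries in red. KRT81 and KRT86 stand near 4000 CPM and all points of KRT14 and KRT222 lie between 0.826 and 4.95 CPM, and the lone low point is KRT17 in NTC replicate 1, which held no count.

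The most abundant keratin reads of these cells belonged to a hair keratin locus. KRT81 (Entrez 3887, GRCh37 chromosome 12, 52679697 to 52685318), a type II keratin of the hair cortex, had 5209, 3973 and 3882 CPM in NTC replicates 1 to 3 and 4253 and 3694.5 CPM in sgJUN#1 replicates 1 and 2. By its NTC mean it stood at rank 5 of all 13616 tested genes, and it made up 65.5% to 78.7% of the summed keratin CPM of a library when KRT86 was left out. The groups overlapped, with a log2 fold change of -0.13 (95% interval -0.57 to 0.30, edgeR adjusted p-value 0.902).

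KRT86 (Entrez 3892, GRCh37 chromosome 12, 52643084 to 52702947), another hair cortex keratin, could not be read as a separate gene. It held 18986, 9808 and 17559 counts in NTC and 20670 and 10353 in sgJUN#1, while KRT81 held 18939, 9761 and 17500 in NTC and 20607 and 10326 in sgJUN#1. The excess of KRT86 over KRT81 was 47, 47 and 59 counts in NTC and 63 and 27 in sgJUN#1, between 0.248% and 0.479% of its own counts. In the GENCODE annotation all 5622 bases of KRT81 lie inside KRT86 on the opposite strand, and strand handling was not stated, so a read there can have been counted for both. With KRT86 counted by this excess alone, which was chosen after the counts were seen, its level was 12.9, 19.1 and 13.1 CPM in NTC and 13 and 9.66 CPM in sgJUN#1, and its log2 fold change -0.37. The end of KRT7 also lies inside the annotated KRT86, over 2887 bases on the same strand, but KRT7 held 678 to 2095 counts in a library, more than the whole excess, so most KRT7 reads were not among those counted for KRT86.

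**Figure D2:**
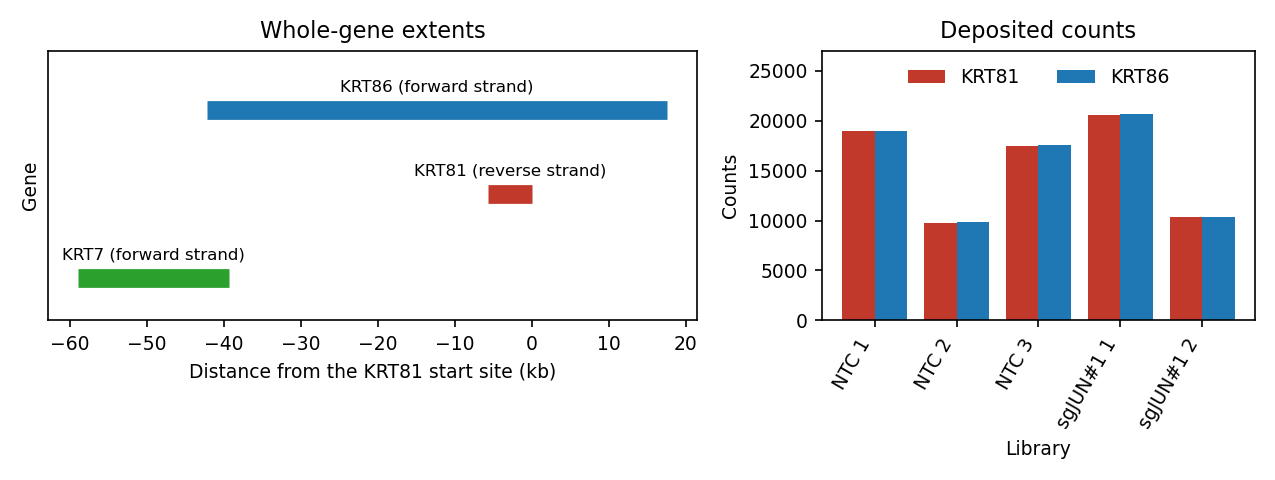
Left, whole-gene extents of KRT7, KRT81 and KRT86 on GRCh37 as distance in kb from the KRT81 start site. Right, deposited counts of KRT81 (red) and KRT86 (blue) in each library. KRT81 sits inside KRT86, and the paired bars differ by 27 to 63 counts.

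Among the basal keratins the type II chain was present and its type I partner nearly absent. KRT5 (Entrez 3852, GRCh37 chromosome 12, 52908359 to 52914314), the defining type II keratin of basal cells, had 210.1, 159.6 and 454.3 CPM in NTC and 265.2 and 151.7 CPM in sgJUN#1. The groups overlapped. NTC replicate 3 had 2.46 times the mean of the other NTC libraries and decided the direction, since with it the log2 fold change came to -0.40 (SE 0.459, adjusted p-value from edgeR 0.865) and without it to 0.18. KRT14 (Entrez 3861, GRCh37 chromosome 17, 39738531 to 39743147), which pairs with KRT5, was counted 8, 8 and 13 times in NTC and 4 and 5 times in sgJUN#1, at 2.20, 3.26 and 2.88 against 0.826 and 1.79 CPM. Both sgJUN#1 libraries were lower, but the counts are close to the floor and KRT14 entered the test only through its NTC level, dropping out without NTC replicate 2 or 3. The fitted log2 fold change, -1.16 with an SE of 0.590, is given as a description (adjusted p-value 0.660 from edgeR). The KRT5 to KRT14 count ratio was 6.42 ± 0.860 on the log2 scale in NTC (SD, n = 3) and 7.21 ± 1.34 in sgJUN#1 (SD, n = 2), and the groups overlapped. KRT15, a type I keratin of basal and progenitor cells, was under the filter with 3, 2 and 10 counts in NTC and 8 and 10 in sgJUN#1.

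The low KRT14 count has a limit in the way reads were placed. The last 300 bases of the KRT14 transcript have another match in GRCh37, at the pseudogene KRT16P6, with 95.4% identity over 258 bases. The same holds for KRT16, with 95.7% over 253 bases at KRT16P1, while the best match of KRT17 reached 93.5% over 247 bases at KRT17P2. Of the 8 keratin pseudogenes in the count table, which do not include KRT16P6 or KRT17P2, none held over 8 counts in a library. Reads were aligned with Bowtie2 at its default settings, which report a single place for a read that fits several. Whether such reads were then kept in the counts was not stated, and their part in these low counts was not tested.

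The luminal and simple keratins were led by KRT7. KRT7 (Entrez 3855, GRCh37 chromosome 12, 52626304 to 52645970), a type II keratin of ducts and glands, had 566.1, 457.5 and 458.3 CPM in NTC and 432.4 and 242.6 CPM in sgJUN#1. Both sgJUN#1 libraries were below all NTC libraries, the higher of them by little, with a log2 fold change of -0.55 (SE 0.261, 95% interval -1.13 to 0.04) and an edgeR adjusted p-value of 0.626. KRT7 was lower in sgJUN#1 in all 12 alternative fits, from -1.03 to -0.19. As the groups did not overlap, leaving out 1 library could hardly turn this direction. The transcribed pseudogene KRT87P, on the opposite strand at 52644250 to 52652337, covers the last 1721 bases of KRT7 and has its own 3′ end there. KRT7-AS overlaps KRT7 over 2401 bases, also on the opposite strand. Strand handling was not stated, and how many reads counted for KRT7 came from these genes was not tested. KRT8, the type II chain of simple epithelia, had 20.1, 13.8 and 27.5 CPM in NTC and 16.3 and 16.1 CPM in sgJUN#1, inside the NTC range. KRT18, its type I partner, had 45.1, 36.2 and 41.5 CPM in NTC and 50.2 and 34.3 CPM in sgJUN#1, on both sides of NTC. Their log2 fold changes were -0.36 (SE 0.313) for KRT8 and 0.05 (SE 0.237) for KRT18.

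KRT8 was lower than KRT18 in every library. The log2 ratio of KRT8 to KRT18 counts was -1.04 ± 0.406 in NTC (SD, n = 3) and -1.35 ± 0.375 in sgJUN#1 (SD, n = 2), and the groups overlapped. Both genes have many copies in the genome. The last 300 bases of KRT8 matched 50 other places and those of KRT18 matched 71, of which 1 and 4 had at least 95% identity over at least 75 bases. KRT19 was not counted in any library and KRT20, a keratin of the gut lining, was counted once. The last 300 bases of KRT19 matched 18 other places, the best with 93.3% identity over 298 bases at KRT19P1. How reads that fit several places were counted was not stated, so the KRT19 count bears this limit too.

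The stress keratins separated the 2 sgJUN#1 libraries from each other. KRT6A (Entrez 3853, GRCh37 chromosome 12, 52880960 to 52887041), the type II keratin induced in wounded epidermis, had the highest NTC mean after KRT81 and KRT86, although KRT7 exceeded it in NTC replicate 1. It had 465.4, 748.1 and 616.6 CPM in NTC, 1289 CPM in sgJUN#1 replicate 1 and 398.2 CPM in sgJUN#1 replicate 2. One sgJUN#1 library was thus above all NTC libraries and the other below all of them, a 3.24-fold difference within the group that only 0.514% of tested genes exceeded on the log2 scale. Over all 5 libraries the log2 fold change came to 0.47 (95% interval -0.57 to 1.51, SE 0.447), for which edgeR gave an adjusted p-value of 0.824. It was -0.61 without sgJUN#1 replicate 1 and 1.09 without sgJUN#1 replicate 2. JUN went the other way, with more in replicate 2 than in replicate 1.

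KRT6B, a close relative of KRT6A with the same expression pattern in skin, was counted 0, 6 and 4 times in NTC, 95 times in sgJUN#1 replicate 1 and 3 times in replicate 2. This is 19.6 CPM in 1 library against at most 2.44 CPM in the other 4, and because it rests on 1 library KRT6B did not pass the filter. Fitted without a filter it had a log2 fold change of 3.46 and an SE of 1.64 (edgeR adjusted p-value 0.806). The ends of KRT6A, KRT6B and KRT6C differ enough to be told apart, with at most 87.5% identity to any other place in the genome. KRT6C stayed at 0, 1 and 4 counts in NTC and 1 and 2 in sgJUN#1.

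The type I partners of KRT6A were counted far less. KRT16, induced together with KRT6A in hyperproliferative skin, had 2, 1 and 5 counts in NTC and 15 and 3 in sgJUN#1, again highest in replicate 1. KRT17 (Entrez 3872, GRCh37 chromosome 17, 39775694 to 39781094), found in basal cells of glands and in wounds, had 0, 11 and 27 counts in NTC and 79 and 22 in sgJUN#1. In CPM this was 0, 4.48 and 5.99 against 16.3 and 7.87, so both sgJUN#1 libraries were above NTC, replicate 2 by a small step. The log2 fold change of KRT17 was 1.8 (95% interval -0.14 to 3.75, SE 0.834), and edgeR gave it an adjusted p-value of 0.628. Over 11 alternative fits it stayed above 0, from 1.16 to 2.71, which leaving out 1 library could hardly turn, as the groups did not overlap. The lowest adjusted p-value, 0.477 from edgeR, came without NTC replicate 1, the library with 0 counts. Summed over the role, stress keratins had 465.9, 755.8 and 625.5 CPM in NTC and 1328 and 408.95 CPM in sgJUN#1. The KRT6A to KRT16 count ratio was lower in both sgJUN#1 libraries, at 8.48 ± 0.241 (SD, n = 2) against 9.55 ± 0.651 (SD, n = 3) on the log2 scale, and rests on 1 to 15 counts of KRT16.

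**Figure D3:**
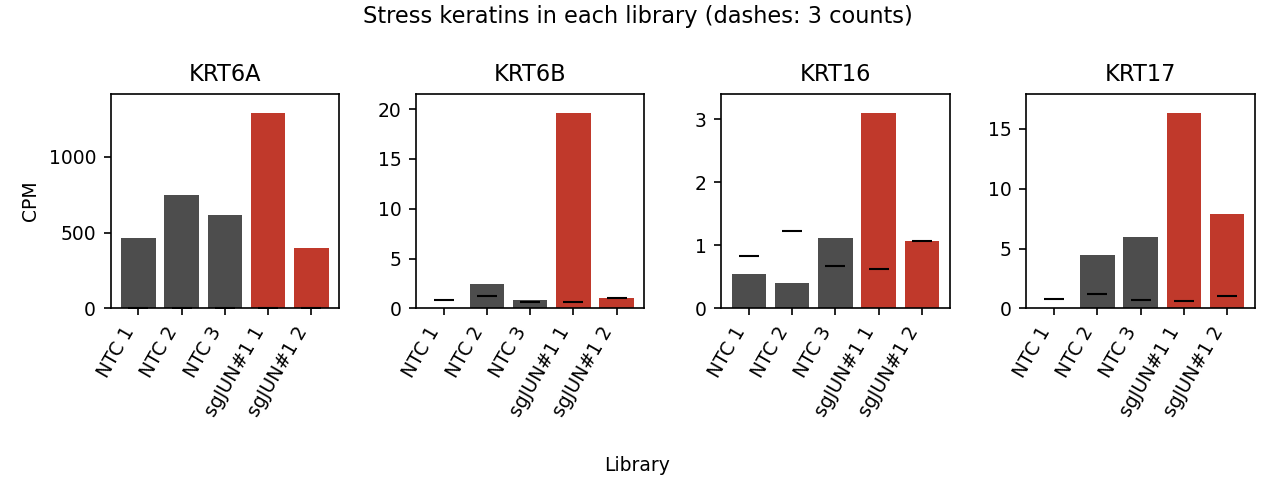
Bars give the CPM of KRT6A, KRT6B, KRT16 and KRT17 in each NTC (grey) and sgJUN#1 (red) library, each panel on its own scale from 0, and dashes mark the level of 3 counts. All 4 are highest in sgJUN#1 replicate 1, and in KRT6A the other sgJUN#1 library is the lowest of the 5 at 398.2 CPM.

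With KRT86 left out, 9 of 12 tested keratins had a higher level in sgJUN#1 replicate 1 than in replicate 2, as did 49.6% of all tested genes. The ratio of replicate 1 to replicate 2 was 2.22 for KRT80, 2.07 for KRT17, 1.78 for KRT7, 1.75 for KRT5 and 1.46 for KRT18. On the log2 scale 3.71% of tested genes differed more between these libraries than KRT80, 5.03% more than KRT17, 8.53% more than KRT7, 9.2% more than KRT5 and 20.9% more than KRT18. KRT8 and KRT10 differed little between these libraries, with log2 ratios of 0.02 and -0.03. The reason was not tested, and the libraries differ in depth, with 4988062 and 2766254 counts.

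Among the remaining roles, KRT10 was abundant enough to compare and did not overlap between groups. KRT10 (Entrez 3858, GRCh37 chromosome 17, 38974369 to 38978866) is the type I keratin that pairs with KRT1 when epidermal cells leave the basal layer. It had 91.0, 80.6 and 49.7 CPM in NTC and 106.9 and 109.1 CPM in sgJUN#1, with a log2 fold change of 0.55 (SE 0.259, 95% interval -0.03 to 1.14) and an edgeR adjusted p-value of 0.621. Both sgJUN#1 libraries were above NTC and close to each other, and the fold change was above 0 in all 12 alternative fits, from 0.33 to 0.74. With groups that do not overlap, leaving out 1 library could hardly turn this direction. The antisense gene KRT10-AS1, at 38975353 to 38992522, covers 78.1% of KRT10. Without known strand handling, reads inside that stretch cannot be told apart. The annotated 3′ ends of both genes, where most reads of such libraries start, lie outside it. How many reads fell inside was not tested. Of the other 9 suprabasal keratins, 4 had no count, and KRT4 and KRT13, the pair of moist stratified linings, had at most 6 counts in a library.

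KRT80, a type II keratin of differentiating epithelia, had 16.2, 14.2 and 13.8 CPM in NTC and 20.6 and 9.30 CPM in sgJUN#1, on both sides of the NTC range. All of KRT80 lies within LINC00592 on the opposite strand, so reads there bear the same strand limit as in KRT10. The annotated 3′ end of LINC00592, at 52617597, lies outside KRT80. KRT222, a divergent and short family member, had 3.03, 3.26 and 2.0 CPM in NTC and 4.95 and 4.65 CPM in sgJUN#1, higher in both but resting on 8 to 24 counts, with an edgeR adjusted p-value of 0.664. A protein-coding gene on the same strand, ENSG00000264058, covers 99.6% of KRT222. Its annotated 3′ end, at 38783608, lies outside KRT222, and how many of these reads came from it was not tested. KRT34, a type I hair keratin, had 6.88, 17.5 and 5.1 CPM in NTC and 10.3 and 14.7 CPM in sgJUN#1, and the groups overlapped. Apart from KRT34, KRT81 and KRT86, each hair and inner root sheath keratin had at most 4 counts in a library.

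**Figure D4:**
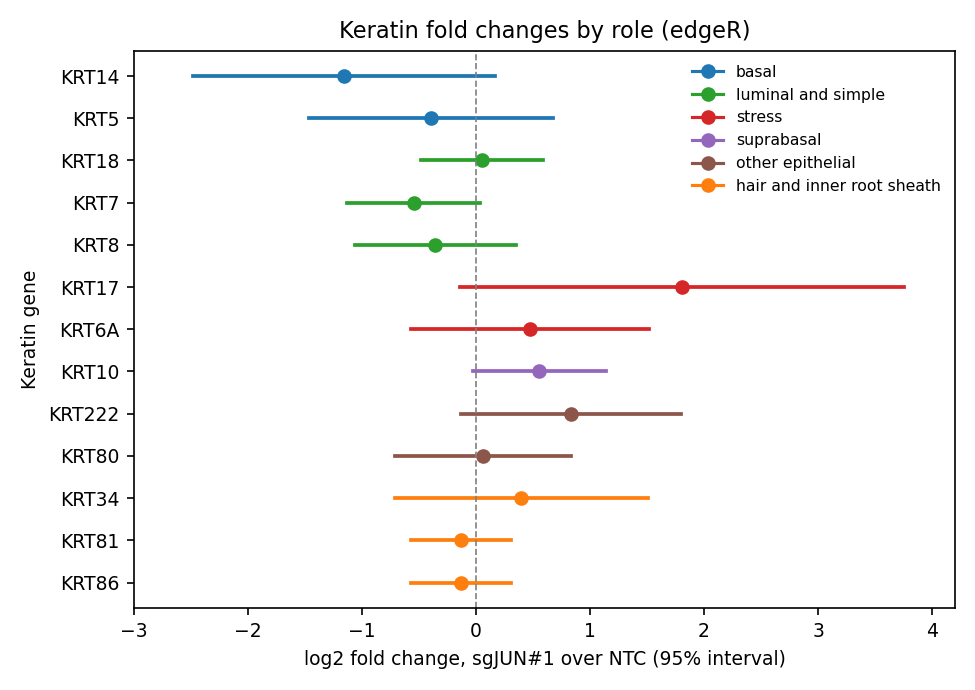
Log2 fold changes of sgJUN#1 over NTC from edgeR for the 13 tested keratins, coloured by role, with 95% intervals. All intervals include 0, and KRT17 has the widest.

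By role, the median log2 fold change was -0.36 for the 3 luminal and simple keratins and 1.14 for the 2 tested stress keratins. Each describes those genes alone, and the stress median was 0.27 without sgJUN#1 replicate 1. The basal and hair roles are given by their genes, since KRT14 entered through NTC alone and KRT81 and KRT86 share their reads. Type I keratins together had 150.4, 147.7 and 112.5 CPM in NTC and 195.7 and 177.5 CPM in sgJUN#1, higher in both sgJUN#1 libraries. KRT10 was the largest part of this sum, at a mean of 73.8 CPM in NTC and 108 CPM in sgJUN#1. KRT18, the next, had means of 40.9 and 42.3 CPM, so the sum does not stand for each type I gene. Type II keratins without KRT81 and KRT86 had 1279, 1400.1 and 1575 CPM in NTC and 2044 and 821.8 CPM in sgJUN#1, again on both sides of NTC. Type II reads exceeded type I reads in every library, and the low KRT14, KRT16 and KRT17 counts bear the limit given above.

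Promoters of 34 keratins were found in the RefSeq set, among them KRT5, KRT8, KRT10 and KRT34 of the tested genes. Those of KRT6A, KRT6B, KRT7, KRT14, KRT16, KRT17, KRT18, KRT80, KRT81, KRT86 and KRT222 were not searched. Over the 250 bases before the start, none of their 38 promoters held the AP-1 consensus TGANTCA, the site that JUN dimers bind and that reads the same on both strands, where 6.57% of all 35116 promoters did. The TATA box letters TATAAA, searched on both strands, were in 21 of the 38 (55.3%) against 10.7% of all promoters. A missing match says only that these letters are not in this window. The sequences below show the basal KRT5 next to KRT10 and the hair keratin KRT34, all on the reverse strand of GRCh38.p14 and credited to RefSeq, at chr12:52520395-52520644, chr17:40822615-40822864 and chr17:41382307-41382556, with TATAAA in capitals where it occurs.
KRT5: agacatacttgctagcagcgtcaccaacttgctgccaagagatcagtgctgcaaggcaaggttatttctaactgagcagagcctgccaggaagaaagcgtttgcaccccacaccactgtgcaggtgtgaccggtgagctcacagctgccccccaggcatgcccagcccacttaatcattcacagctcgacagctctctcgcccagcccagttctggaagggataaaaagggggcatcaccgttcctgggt
KRT10: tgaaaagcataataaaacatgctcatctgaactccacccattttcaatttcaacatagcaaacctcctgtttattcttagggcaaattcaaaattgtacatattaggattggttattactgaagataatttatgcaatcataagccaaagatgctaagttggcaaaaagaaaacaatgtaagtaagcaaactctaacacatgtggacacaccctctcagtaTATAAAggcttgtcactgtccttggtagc
KRT34: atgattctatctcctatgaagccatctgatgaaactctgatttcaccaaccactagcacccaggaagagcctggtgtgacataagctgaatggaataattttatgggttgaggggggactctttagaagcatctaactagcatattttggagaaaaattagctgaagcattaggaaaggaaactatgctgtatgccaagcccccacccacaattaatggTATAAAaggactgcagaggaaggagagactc
In KRT10 and KRT34 the match begins 29 and 31 bases before the start, and KRT5 has none.

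The proteins that anchor keratins were examined beside them. Of 17 linkers, which join keratin filaments to desmosomes and hemidesmosomes, 16 were tested and 0 were called by edgeR, beside 0.206% of all tested genes. The log2 fold change was above 0 for 9 and below 0 for 7. An unadjusted edgeR p-value under 0.05 was found for 1, beside 8.38% of all tested genes. That gene was ITGB4, the hemidesmosome integrin that KRT5 filaments reach through plectin, at 118.8, 47.6 and 292.4 CPM in NTC and 26.4 and 26.1 CPM in sgJUN#1, with a log2 fold change of -2.55 (SE 0.770) and an edgeR adjusted p-value of 0.459. PPL (periplakin) had -1.62 and PKP2 (a desmosome plaque protein) -0.87, each with overlapping groups. NTC replicate 3 was also the highest of the 3 controls for ITGB4 and PPL, at 3.51 and 4.59 times the mean of the others, as it was for KRT5, and it had the lowest JUN. What sets this library apart was not tested.

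Factors that control keratin genes and the other intermediate filaments held no calls. Of 16 regulators 10 were tested and 0 called by edgeR, with 1 at an unadjusted p-value under 0.05. Over all tested genes, 0.206% were called by edgeR and 8.38% had an unadjusted p-value under 0.05. The largest fold changes were 0.95 for KLF4, 0.59 for SOX15 and -0.40 for TFAP2A, with edgeR adjusted p-values of 0.697, 0.572 and 0.708. Of 18 other intermediate filament genes 8 were tested and 0 called by edgeR, with 0 at an unadjusted p-value under 0.05 and the largest log2 fold changes at 0.37 for IFFO2, -0.24 for LMNB1 and -0.22 for LMNA. VIM, the mesenchymal filament protein that MCF10A cells carry beside keratins, had 718.4, 522.2 and 423.0 CPM in NTC and 437.8 and 846.9 CPM in sgJUN#1, with overlapping groups.

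Other markers of both mammary lineages were detected in both groups. Of 12 non-keratin luminal markers 8 were tested. An unadjusted edgeR p-value under 0.05 was found for 2 higher and 1 lower in sgJUN#1, beside 8.38% of all tested genes. After adjustment 1 was called by edgeR, beside 0.206% of all tested genes. It was CD24, a surface protein of luminal cells, at 51.99, 65.9 and 63.4 CPM in NTC and 182.9 and 358.1 CPM in sgJUN#1, with a log2 fold change of 2.16 (edgeR adjusted p-value 0.0202). Its counts differed by at most 4.9% in any library from those of a Y-linked row. How reads were shared between these rows was not stated, and the call describes the reads counted for CD24. EPCAM, an adhesion protein of epithelia, had a log2 fold change of 2.44 and higher levels in both sgJUN#1 libraries, 143.9 and 56.5 CPM against 23.7, 7.33 and 23.3 CPM, with an edgeR adjusted p-value of 0.210. GATA3, a luminal transcription factor, had -1.25 (edgeR adjusted p-value 0.556), with NTC replicate 3 at 2.61 times the other controls. Of 10 non-keratin basal markers 8 were tested and 0 called by edgeR, with 2 at an unadjusted p-value under 0.05, against the same 8.38%. These were ACTA2 at 0.74 and CDH3 at 0.69, and EGFR had -0.68. By DESeq2, which called 0.975% of its genes, 0 linkers, 0 regulators, 0 other intermediate filament genes and 0 basal markers were called. CD24 was the 1 luminal marker that DESeq2 called.

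Markers of other cell types were low. The 6 fibroblast markers summed to 25.9, 27.7 and 92.3 CPM in NTC and 31.2 and 56.2 CPM in sgJUN#1, mostly from DCN, and COL1A2 had at most 1 count in any library. The 7 immune and endothelial markers summed to between 14.6 and 25.0 CPM, with CD3E and CD79A at 0 in all libraries and CD68 higher in both sgJUN#1 libraries, at 11.4 and 16.1 CPM against 3.11 to 8.14 CPM. DCN was again highest in NTC replicate 3, at 3.56 times the other controls, and its part in the KRT5 level of that library was not tested.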

How the data were processed

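Raw counts per gene were used as deposited, for 3 NTC and 2 sgJUN#1 libraries, grouped and numbered by their titles. The authors made 3′ end libraries with the QuantSeq FWD kit. Per the labels, reads were trimmed with cutadapt 4.2 and aligned to hg19 with Bowtie2 2.3.5.1, at default settings by the study's methods, and the methods of the study name countOverlaps in R for counting. The annotation, strand handling and the use of multiply aligned reads or PCR copies in counting were not given in the sources used here, so count limits cover counting error only.

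Of 23459 Entrez identifiers, 23308 had a RefSeq symbol. Differential expression was tested over all genes with the quasi-likelihood test of edgeR 4.0.16 in R 4.3.3, with TMM factors, the default filter (13616 genes kept), robust estimation and group as the only term. P-values were adjusted by Benjamini-Hochberg, with 0.05 as the threshold. Standard errors were derived from the fold change and the F statistic of each gene, and 95% intervals use the quasi-likelihood degrees of freedom. The count fit was tested on simulated data. Alternatives were DESeq2 1.42.0 on all genes, 2 other scalings, 2 other filters, each library left out and a replicate block. Count ratios of partners used a prior count of 0.5. Positions are from GENCODE 44 on GRCh37, and the last 300 bases of each canonical transcript were searched in GRCh37 with blastn 2.17.0.

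Keratins, roles and lists were chosen with earlier results of these data known. Named were JUN, all tested keratins, those under the filter with counts, and from the other lists each called gene and the 3 largest fold changes. Genes named beyond this, such as VIM, were chosen after their values were seen.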

Additional observations from a re-analysis of the deposited data

How the results depend on the processing

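Keratin calls stayed at 0 in all 12 alternatives, in which 10 to 37 keratins were tested. The lowest adjusted p-value of the 13 tested keratins was 0.215 (edgeR), for KRT7 with the replicate block. That fit draws no group difference from NTC replicate 3. With the settings used in the Results, 0 of 13 keratins had an unadjusted edgeR p-value under 0.05, and some alternatives had more. KRT7 did with library size alone, with the replicate block and without NTC replicate 3. With no filter KRT7, KRT10 and KRT16 did. KRT17 did without NTC replicate 1 or 3, KRT10 without NTC replicate 1 and KRT34 without NTC replicate 2. The share of all genes in these fits is not given here. KRT6B, outside the 13 tested keratins, had larger log2 fold changes, at 3.28 by DESeq2 and 3.46 with no filter. It had 4.30 without sgJUN#1 replicate 2, where only the sgJUN#1 library with its high count was left. Fits that left out an sgJUN#1 library assume that the lone one varies like NTC. Over all genes 28 were called, and this became 136 with DESeq2, 148 with no filter, 18 when every library had to hold 10 counts and 10 to 57 when 1 library was left out. The log2 fold change of JUN was 3.25, and JUN passed with DESeq2 (3.24), with a range of 2.84 to 3.68 when 1 library was left out, where it passed without NTC replicate 2 or 3.

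Library identifiers of same-numbered libraries are consecutive, but the labels tie no number to a common day or batch. Across genes, the replicate 1 minus replicate 2 differences of the groups correlated at 0.0146, on 2 pairs. Replicate 3 exists only in NTC, so with the replicate block NTC replicate 3 adds nothing to the group difference. That fit compares replicates 1 and 2 of both groups. In it 103 genes (54 higher, 49 lower) and 0 keratins were called, and JUN passed at 2.82. KRT5 turned to 0.14 and KRT80 to -0.051, and the luminal and simple median moved to -0.071. Without NTC replicate 3 and with no block, KRT5 came to 0.18 and JUN to 2.84.

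Single keratins that turned had small fold changes or rested on 1 library. Without NTC replicate 1, KRT81 turned to 0.015 and KRT86 to 0.013. KRT18 turned to -0.027 without NTC replicate 2, and KRT5 to 0.18 without NTC replicate 3. Without sgJUN#1 replicate 1, KRT18 turned to -0.26, KRT6A to -0.61 and KRT80 to -0.66. Over the fits that left out 1 library, KRT81 ran from -0.24 to 0.015, KRT86 from -0.24 to 0.013, KRT18 from -0.26 to 0.30, KRT5 from -0.86 to 0.18, KRT6A from -0.61 to 1.09 and KRT80 from -0.66 to 0.49.

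Role medians moved over the same fits from -0.94 to 0.18 for basal, from -0.56 to -0.081 for luminal and simple, from 0.27 to 1.65 for stress and from 0.058 to 0.68 for other epithelial keratins. No basal median is given, since KRT14 reached the filter only through NTC and drops out without NTC replicate 2 or 3. The log2 ratio of summed CPM, sgJUN#1 over NTC, ran from -0.92 to -0.15 for luminal and simple keratins and from -0.59 to 1.12 for stress keratins. When every library had to hold 10 counts, the basal median moved from -0.78 to -0.41, the stress median from 1.14 to 0.47 and that of the other epithelial keratins from 0.45 to 0.057, in each case because 1 of 2 genes was left. Counting KRT86 by its excess, added after the data were seen, changed no call.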
